A study of Mus musculus with 2 samples.

Results

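Accessible sites that lie in 3' untranslated regions (3' UTRs), far from any annotated transcript start, were described in gastrocnemius, the large calf muscle, of newborn mice. A site was taken where a DNase-seq peak of replicate 1 overlapped a peak of replicate 2 on chromosomes 1 to 19. Its centre had to lie more than 1 kb from every GENCODE M21 transcript start, downstream of the stop codon in the UTR of a protein-coding transcript, and in no coding sequence. Positions and overlap made this choice, and no density value was used in it. The overlap needs a call in both libraries, and peaks so chosen were stronger than those of each library taken alone. It gave 955 peaks of the 44551 distal shared peaks (2.14%), out of 94295 peaks in replicate 1 and 123291 in replicate 2. Both libraries were made from the hind-limb muscle of males of the F1 hybrid B6CASTF1/J (a cross of C57BL/6J and CAST) at 4 days of age, and each label mentions 3 males. They form 1 group of 2 biological replicates with separate tissue entries and 1 shared donor entry, and no treatment or other genotype is given. With 1 group there is no contrast to test, so both libraries' values are given and no p-value is. Peaks and genes are not replicates, and the spread between these libraries may be partly technical.

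A 3' UTR is the part of a messenger RNA after the stop codon, best known for binding microRNAs and RNA-binding proteins that set the stability and translation of the transcript. The DNA that encodes it can also be open to transcription factors and act as any other stretch of chromatin. DNase I cuts such open DNA, and a factor bound within it can leave a footprint, a short stretch protected from cutting. CTCF, a zinc finger protein that organises chromatin loops, is among the factors that leave the clearest footprints.

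The sites below come from the 3' UTR peaks with the highest density whose match to the CTCF core lay in a footprint in both libraries. The core was written as CCA, AG and GGC, with 2 bases of any kind between one block and the next. The sites are shown because, of the motifs found in over 50 of the 3' UTR peaks, this one went with the highest median ranks. Capitals mark the core, each sequence runs 5′ to 3′ on the strand that carries it, and the coordinates are GRCm38.p6 (mm10).
Dand5, chr8:84815724-84815749, minus strand: cttttagCCACTAGGTGGCaccgcgt
Skap2, chr6:51858061-51858086, minus strand: taagtggCCAGCAGATGGCagcagct
Frmd8, chr19:5850357-5850382, minus strand: gctgtgaCCAGCAGGGGGCagctgag
Cavin1, chr11:100957422-100957447, minus strand: tagggttCCAGCAGGGGGCagcagcg
Ror2, chr13:53109643-53109668, plus strand: ttggactCCAGCAGATGGCagcatcg
Slc4a3, chr1:75559669-75559694, minus strand: aaaaccaCCACCAGAGGGCtacacac
Ptges2, chr2:32404849-32404874, plus strand: cccacagCCACCAGGAGGCactagag
Tnfrsf1b, chr4:145214572-145214597, plus strand: ggacgggCCACCAGGGGGCagacgtg
Elovl3, chr19:46135440-46135465, plus strand: ccagagaCCACCAGGTGGCgtcgcag
In Dand5, Skap2, Frmd8, Cavin1, Ptges2 and Elovl3 the core reads along the gene, and in Ror2, Slc4a3 and Tnfrsf1b against it.

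Other motifs in strong 3' UTR peaks are shown for comparison, again each with the capitals inside a footprint in both libraries. The first 4 sites hold the GC box GGGCGG, known from SP and KLF factors. The next 3 hold CAGCTG, an E-box bound by myogenic factors such as MyoD. The E-box of Frmd8 shares a base with its CTCF core. Unc13a holds the NRF1 motif, GCGC and TGCGC with 1 base of any kind between them. The site in Sectm1b holds ACATTCC, which in RNA pairs with the seed of miR-1 and miR-206 and as DNA contains CATTCC, the MCAT motif of TEAD factors. The window of this Sectm1b peak also holds a CTCF core, which did not lie in a footprint in both libraries. The flank printed after the Sectm1b capitals ends in bases that match the CCA and AG blocks of the CTCF core. Which factor left the Sectm1b footprint was not tested. The site in Oaf holds AATAAA, the poly(A) signal.
Ubqln1, chr13:58177715-58177740, minus strand: gcagtacgacGGGCGGgtttctgtgt
a (agouti), chr2:155050832-155050857, plus strand: acgggtgattGGGCGGggcttcaggg
Shf, chr2:122348940-122348965, minus strand: tgccgggaggGGGCGGggagcgagcc
Prss22, chr17:23993696-23993721, plus strand: ctcgattgagGGGCGGatcctctatg
Frmd8, chr19:5850349-5850374, plus strand: agagagggctCAGCTGccccctgctg
Bcl9l, chr9:44510276-44510301, plus strand: cccctgcaggCAGCTGgccaggtggg
Plekhf1, chr7:38217697-38217722, plus strand: cagggagactCAGCTGgcaggacagt
Unc13a, chr8:71629420-71629445, minus strand: gcggtgccGCGCCTGCGCcctagcgc
Sectm1b, chr11:121053741-121053765, minus strand: tgcatcaccACATTCCtaccactag
Oaf, chr9:43221914-43221939, minus strand: ttgtaccagaAATAAAagtcttttaa

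The density deposited for each peak is the authors' own value of cutting at the peak. Its low values step by 0.00675 in replicate 1 and 0.00333 in replicate 2, so replicate 2 would be 2.03 times as deep if each step stood for 1 cut. The number of reads is unknown here, and no counting interval is given. Densities are therefore given as ranks, percentiles from 0 to 100 within each library's own list of peaks, and as densities where single peaks are named. In whole tissue a site open in few cells and a site cut less often in many cells cannot be told apart. All 9 skeletal muscle markers had a peak within 500 bp of a start in both libraries. Of the other cells a muscle can hold, 5 and 6 of 6 fibroblast markers (replicate 1 and 2), 4 of 5 endothelial, 2 of 3 autosomal Schwann cell and 2 of 3 autosomal erythroid markers had one in each library, and none of 4 macrophage markers did. For keratinocytes it was 1 and 2 of 4. Among these markers the endothelial VEGF receptor gene Kdr had a 3' UTR peak, which ranked 65.2 and 71.4, and 4.7% of all protein-coding genes with eligible 3' UTR had one.

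The 3' UTR peaks were more frequent for the sequence available than distal peaks as a whole. The 28.9 Mb of 3' UTR in which a centre could fall held 33.0 peaks per Mb, against 19.8 per Mb over all 2246 Mb of eligible sequence. Coding exons held 67.1 per Mb, other exons 35.6, first introns 26.1, later introns 20.1 and intergenic sequence 16.8. In replicate 1 alone the 3' UTRs held 42.6 per Mb against 26.1 over all classes, and in replicate 2 alone 61.3 against 36.4. The order of 3' UTRs between coding exons and introns was thus the same in each library.

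Of the 1231 distal 3' UTR peaks in replicate 1, 77.6% were found in replicate 2, where 75.9% of all distal peaks were. In the other direction, 53.7% of 1772 distal 3' UTR peaks of replicate 2 were found in replicate 1, against 54.3% of all distal ones. The 3' UTR peaks that were found in both libraries had median ranks of 60.1 in replicate 1 (quartiles 42.0 and 75.4) and 68.1 in replicate 2 (52.2 and 81.9). All distal shared peaks had medians of 51.7 and 62.6. Coding exon peaks, the more frequent class, were the weaker one, with medians of 49.9 and 57.8. In each library the 3' UTR median was the highest of the 7 classes, although the quartile ranges of all classes overlapped widely.

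**Figure D1:**
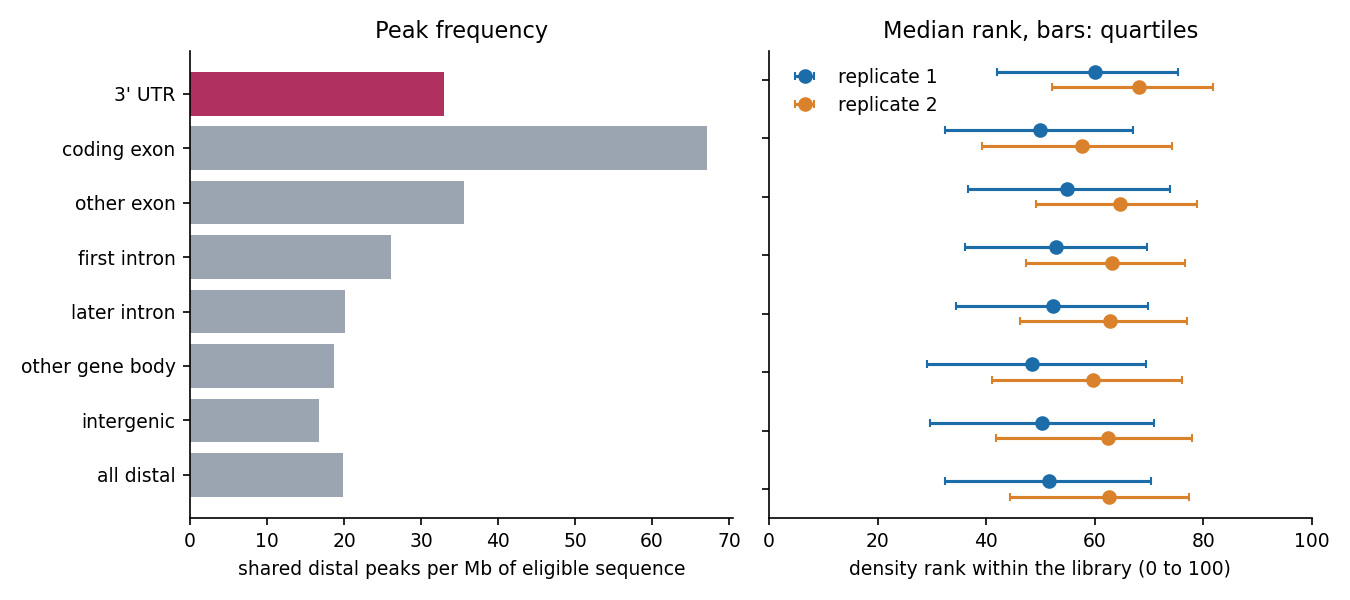
Left, shared distal peaks per Mb of eligible sequence by annotation class, with 3' UTRs in red. Right, the median density rank of each class (points) with its quartiles (bars) in replicate 1 (blue) and replicate 2 (orange); 3' UTR peaks have medians of 60.1 and 68.1, to the right of every other class in the same library.

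Footprints lay in 3' UTR peaks about as often as in other distal peaks. In both libraries together 818 of the 955 peaks (85.7%) held at least 1 footprint, against 84.2% of all distal shared peaks. Footprint density was 1.25 per 100 bp in replicate 1 and 1.52 in replicate 2, against 1.18 and 1.46. The median peak was 177 bp wide, against 169 bp. Coding exon peaks held a footprint in both libraries in 76.1% of cases.

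Around the centres, the stretches of bases with a false discovery rate (FDR) below 0.05 in the deposited lists were narrow. At the centre 97.7% of 3' UTR peaks in replicate 1 and 97.3% in replicate 2 lay in such a stretch. At 200 bp to the left on the reference strand it was 11.7% and 21.4%, close to the 10.5% and 19.5% of other distal peaks. Further out the 3' UTR peaks stayed above the others: at 600 bp to the right, 9.42% and 12.4% were listed, against 5.72% and 8.53%. Another shared peak lay within 2 kb of 360 of the 3' UTR peaks (37.7%), with overlapping calls counted as separate peaks. That share was not computed for all distal shared peaks, so it cannot be read as a trait of 3' UTR peaks.

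**Figure D2:**
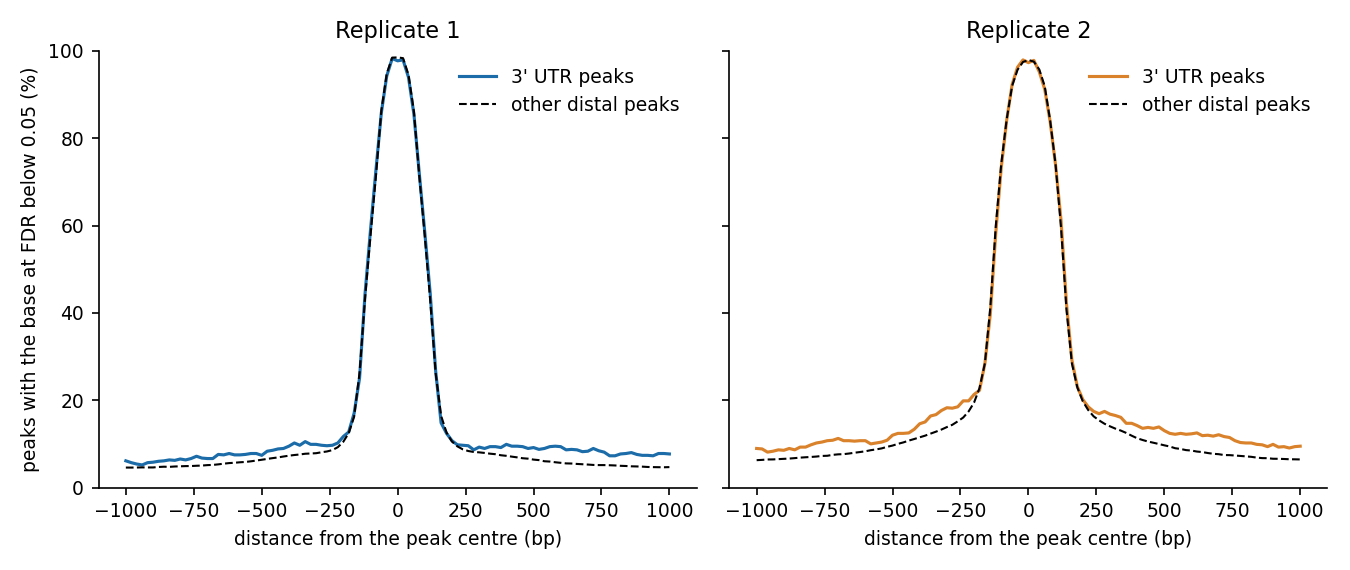
Percent of peaks whose base at each distance (bp) from the peak centre lies in a stretch with FDR below 0.05, for 3' UTR peaks (coloured) and other distal shared peaks (dashed), in replicate 1 (left) and replicate 2 (right). The curves coincide at the centre, at 97.7% and 97.3% for 3' UTR peaks, and the 3' UTR curve lies higher in the flanks of both libraries.

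Within the 3' UTR, peaks were densest just after the stop codon and became sparser with distance from it. The first 250 bp after the stop codon held 216 peaks, 49.6 per Mb. The rate was 37.7 per Mb from 250 to 500 bp, 35.5 from 500 to 1000 bp, 28.6 from 1000 to 2000 bp, 27.3 from 2000 to 4000 bp and 17.2 beyond. Each step down was seen in each library alone, from 66.9 to 25.4 per Mb in replicate 1 and from 88.2 to 36.8 in replicate 2. Counted from the transcript end, the last 250 bp held 24.8 peaks per Mb, against 39.8 per Mb from 250 to 500 bp before the end and 23.2 per Mb over 4000 bp before it.

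GC content moved with these positions. The eligible sequence fell from 45.5% GC in the first 250 bp after the stop codon to 41.0% beyond 4000 bp, and the last 250 bp before the transcript end had 40.1%. The peaks themselves had a median GC of 58.5% in the first 250 bp and 53.9% beyond 4000 bp. The part of base composition in the positions was not tested. Peaks within 250 bp of the stop codon had median ranks of 60.5 and 69.2, and the others of 60.1 and 68.0. Peaks within 250 bp of the transcript end had 65.8 and 74.5, against 59.1 and 67.0 for those further from it. Rank thus differed little by distance from the stop codon, and was higher next to the transcript end in each library. The median peak lay 801 bp after the stop codon (quartiles 294 and 1685 bp), at 43.5% of the length of its 3' UTR.

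**Figure D3:**
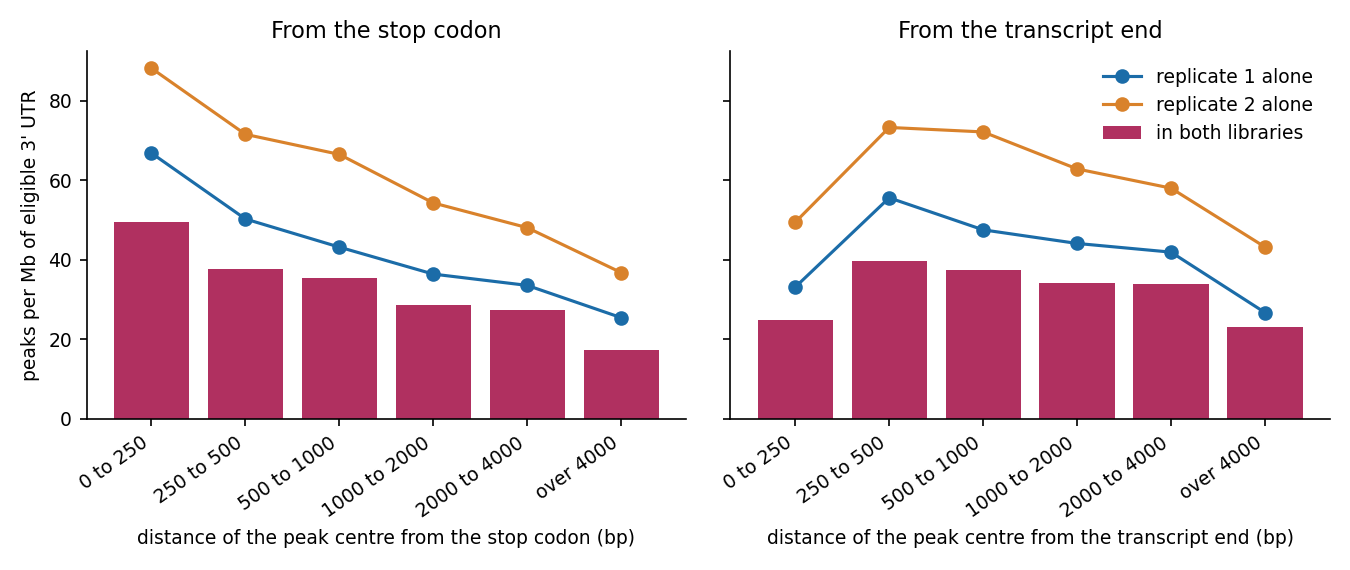
Peaks per Mb of eligible 3' UTR by distance (bp) of the peak centre from the stop codon (left) and from the transcript end (right). Bars are peaks in both libraries and lines are replicate 1 and replicate 2 alone; bars fall from 49.6 to 17.2 per Mb away from the stop codon, and the bin next to the transcript end holds 24.8.

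The peaks differed in sequence from 3' UTR sequence without a peak, and much less from all distal shared peaks. In windows of 200 bp the median GC content was 55.5%, against 42.5% in the 130011 windows that tile 3' UTRs outside all peaks. The ratio of observed to expected CpG was 0.263 against 0.178. Windows with at least 50% repeat (soft-masked) bases made up 1.57% of the peak windows and 10.4% of the tiles. Measured over whole peaks, median GC was 56.25% in 3' UTR peaks and 54.3% in all distal shared peaks. Their median CpG ratios were 0.266 and 0.258, and 1.99% and 3.33% of them were at least 50% soft-masked. A CpG ratio of 0.6 or more was found in 119 peaks (12.5%), with median ranks of 60.4 and 67.5, close to those of the remainder at 60.1 and 68.1. That share was not computed for all distal shared peaks. Across the 955 peaks Spearman's rho of GC with rank was 0.15 in replicate 1 and 0.03 in replicate 2. These points share 2 libraries and their base composition.

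The CTCF core was found in 185 of the 955 windows (19.4%, both strands), against 14.9% of all distal shared peaks and 0.913% of the tiles without a peak. Among tiles and peaks of 50 to 60% GC the shares were 1.44% and 17.6%, and at over 60% GC 2.14% and 14.4%. By class, the share was 9.42% in coding exons, 10.7% in first introns, 13.4% in other exons, 15.6% in intergenic peaks and 17.6% in later introns. The 3' UTR share was the highest of the 7, by a small margin over later introns.

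Peaks with the CTCF core ranked higher. Their median ranks were 71.3 in replicate 1 and 78.9 in replicate 2, against 57.9 and 65.3 for 3' UTR peaks without it. The quartiles overlapped, from 54.5 to 83.3 with the core and from 40.1 to 73.1 without it in replicate 1. Other distal peaks showed the same order, with 66.8 and 75.3 against 48.8 and 60.1. Of the 100 3' UTR peaks with the highest mean rank 37 held the core, and of the 100 lowest 11 did. Among the highest 50 it was 23, and among the highest 10 it was 2. In 120 of the 185 (64.9%) the core lay in a footprint in both libraries, the share (64.9%) found over all distal peaks with the core. Leaving out chromosome 18, the core read along the gene in 55 of 115 such footprinted peaks and against it in 60. These cores lay a median of 8 bp from the peak centre.

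Of the other motifs, the E-box CAGCTG was found in 275 windows (28.8%), against 29.9% of all distal peaks and 8.82% of tiles. In the stratum of 50 to 60% GC it was found in 32.7% of the peaks and 15.8% of the tiles, and at over 60% GC in 30.1% and 20.5%. The GC box was found in 149 windows (15.6%), against 11.8% of distal peaks and 2.48% of tiles. At 50 to 60% GC those shares were 9.98% of peaks and 5.87% of tiles, and at over 60% GC 39.7% and 18.5%. E-box matches were in a footprint in both libraries in 23 peaks (8.36% of those with a match, against 8.88% over all distal peaks), and GC box matches in 37 (24.8%, against 21.8%). Of the 23 E-boxes, 1 lay within 10 bp of a CTCF core.

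**Figure D4:**
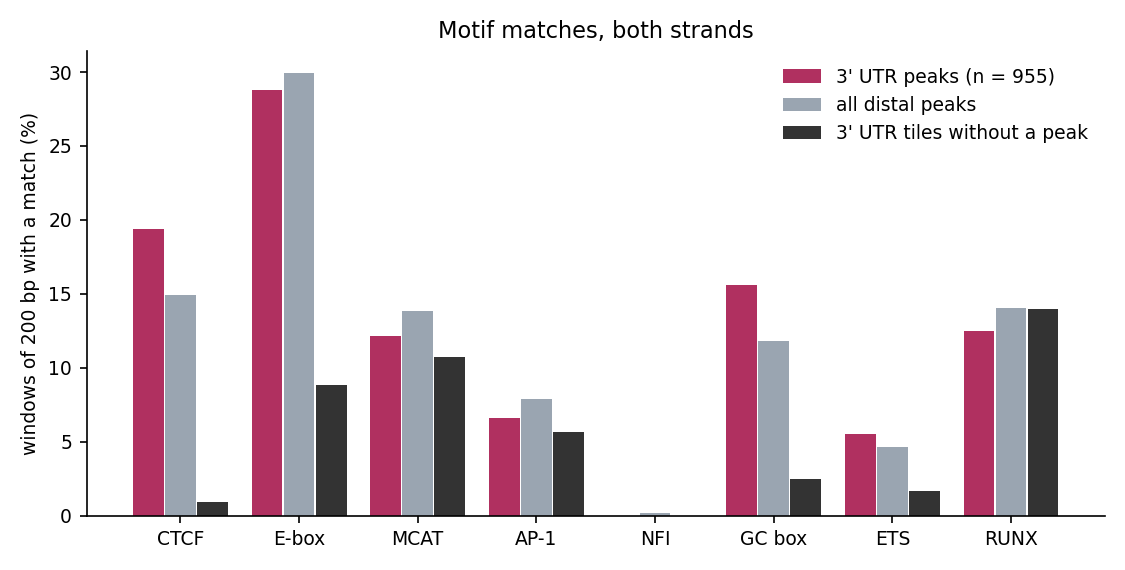
Percent of 200 bp windows with a match on either strand, for 3' UTR peaks (red), all distal shared peaks (grey) and 3' UTR tiles without a peak (black). CTCF stands at 19.4%, 14.9% and 0.913%, while MCAT and RUNX are at similar heights in all 3 kinds of window.

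Several motifs were about as frequent in 3' UTR peaks as in distal peaks or in tiles. The MCAT motif CATTCC was found in 12.1% of 3' UTR peaks, 13.8% of distal peaks and 10.8% of tiles. The RUNX motif TGTGGT was found in 12.5%, with 14% of distal peaks and 14.0% of tiles. The AP-1 motif TGANTCA was found in 6.60%, with 7.87% of distal peaks, and the ETS motif CCGGAA in 5.55%, with 4.64%. Further motifs, given here with the share of distal peaks in parentheses, were rare: the forkhead motif TGTTTAC was in 14 peaks (2.17%), MEF2 in 6 (0.438%), the CArG box of SRF in 7 (0.86%) and the glucocorticoid element (GNACA and TGTNC with 3 bases between) in 4 (0.514%). NRF1 was in 4 (0.42%), of which 3 were footprinted in both libraries. The nuclear factor I motif, TTGGC and GCCAA with 5 bases between, was in none (0.177%).

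Elements that act in RNA were searched on the transcript's strand, and on the plus strand for all distal peaks. The poly(A) signal AATAAA was in 51 of the 3' UTR peaks (5.34%), against 4.99% of distal peaks and 16.5% of tiles. The AU-rich element TATTTAT was in 12 (1.26%), against 1.14% of distal peaks and 5.26% of tiles. The Pumilio element TGTANATA was in 19 (1.99%), against 0.644% of distal peaks and 4.24% of tiles. These elements are rich in A and T, and the tiles have the lower GC content; its part was not tested. Seed matches of muscle microRNAs were few: miR-1 and miR-206 (ACATTCC) had 13 (1.36%, distal 2.04%) and miR-133 (GGACCAA) 11 (1.15%, distal 1.11%). The let-7 match CTACCTC was in 15 (1.57%, distal 0.884%).

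The strongest 3' UTR peak was that of Cers5, a ceramide synthase, 478 bp after the stop codon. Its density was 41.3 in replicate 1 and 38.3 in replicate 2, ranks of 99.998 and 99.999. The next was in Lars2, the mitochondrial leucyl-tRNA synthetase, with 27.8 and 22.6. The third was in Ubqln1, a shuttle factor for ubiquitinated proteins, with 23.4 and 20.9, and its GC box is printed above.

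These 3 peaks stand apart from the rest in density, and their densities are closer to equal in the libraries. The ratio of replicate 1 to replicate 2 was 1.08, 1.23 and 1.12, against a median of 1.42 over all 3' UTR peaks. On the assembled chromosomes the Lars2 peak has 4 other copies of at least 90% identity, 2 on chromosome 11 and 1 each on chromosomes 13 and 19. The share of its cuts that came from another copy was not tested. Cers5 and Ubqln1 had no other copy on a chromosome at that limit, and copies in sequence not placed on a chromosome were not counted. The cause of their densities was not tested.

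**Figure D5:**
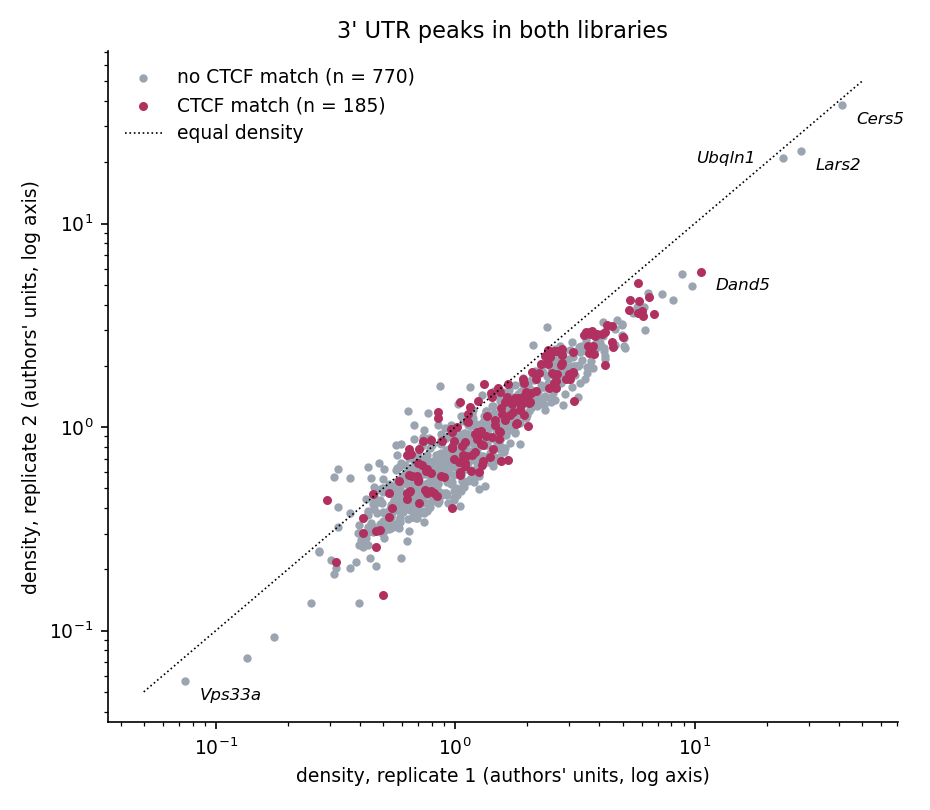
Density of each of the 955 3' UTR peaks in replicate 1 (x axis) and replicate 2 (y axis), in the authors' units on log axes, with peaks that hold a CTCF core in red and a dotted line at equal density. Most points lie under the line, the peaks of Cers5, Lars2 and Ubqln1 lie apart at the upper end, and red points are frequent in the upper part of the main cloud.

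The fourth peak was in Dand5, a secreted Nodal antagonist, with densities of 10.6 and 5.80 and ranks of 98.7 and 98.3. Rtn2, a reticulon that shapes the endoplasmic reticulum, followed with 8.82 and 5.66. The peak of a (agouti), a melanocortin receptor antagonist known for coat colour, had 9.76 and 4.96 and lay 33 bp after the stop codon. All of these ranked above 97 in both libraries. Dtnb, which encodes beta-dystrobrevin of the dystrophin-associated complex, had 8.11 and 4.23, with ranks of 96.8 and 96.1. Shf, an SH2-domain adaptor, had 7.32 and 4.49. Prss22, a serine protease, had 6.38 and 4.58.

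Skap2, an adaptor of Src family kinases, had 5.81 and 5.08, Frmd8, a partner of the iRhom proteins, 6.43 and 4.37, and Cavin1, a coat protein of caveolae, 6.79 and 3.61. The order of neighbours in this group was not the same in the libraries: Skap2 ranked 93.8 in replicate 1, under Frmd8 (94.7) and Cavin1 (95.2), and 97.4 in replicate 2, above both (96.3 and 94.8). Of the 12 strongest, Dand5, Skap2, Frmd8 and Cavin1 held the CTCF core, and a, Ubqln1, Shf and Prss22 the GC box. In all, 43 of the 955 peaks (4.50%) ranked at 90 or more in both libraries, as did 1313 of the 44551 distal shared peaks, 43 of 1613 in coding exons and 50 of 991 in other exons. Over the 955 peaks the densities of the libraries had a Spearman's rho of 0.92.

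The 955 peaks lay in 848 genes, when each was given to the transcript with the longest 3' UTR block at its centre. Overlapping calls were counted as separate peaks, as with the 2 in Zbtb7b, so several peaks need not be several sites. Most of these genes, 756, had 1 peak, 81 had 2, 8 had 3, 2 had 4 and 1 had 5. That gene was Bcl9l, a coactivator of beta-catenin. Its strongest peak, which holds the E-box printed above, had densities of 6.18 and 2.99 and ranks of 94.4 and 93.1. The peak nearest the stop codon, at 28 bp, ranked 79.1 and 81.6, and the other three between 40.5 and 64.2 in replicate 1 and between 45.1 and 57.3 in replicate 2.

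The 4 peaks of Nfatc3, a transcription factor controlled by calcineurin, had densities of 0.473 to 0.682 and 0.413 to 0.656. The 4 of Vps33a, a subunit of the complexes that tether lysosomes and endosomes, were among the weakest 5 of all, with ranks of 0.0965 to 8.70 in replicate 1. Aak1, a kinase of the clathrin adaptor AP-2, had 3 peaks, and the one 15653 bp after the stop codon, which holds a CTCF core, ranked highest with 88.1 and 92.9. The 3 of Srcin1, an adaptor that inhibits Src, had replicate 1 ranks of 82.1, 52.9 and 35.1. A gene with several peaks could thus hold strong and weak ones side by side.

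Over all protein-coding genes with eligible 3' UTR sequence, 879 of 18693 (4.7%) had a 3' UTR peak, here with every gene whose 3' UTR covers the centre counted. The share grew with the length of sequence available, from 1.15% of genes with up to 500 bp to 11.8% of those with over 4000 bp. Genes with a peak had a median of 2119 bp and those without 977 bp. A promoter peak in both libraries, within 500 bp of a start, was found in 720 of the 879 (81.9%), where it was in 67.5% of all these genes. Within length classes the gap was smaller than this in every class over 500 bp. It was 71.7% of genes with a 3' UTR peak and 66.8% of all from 500 to 1000 bp, and 92.6% and 82.7% over 4000 bp. Only in the class up to 500 bp was it larger, at 73.8% and 52.8%, where 65 genes had a 3' UTR peak.

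The list of immediate early and stress genes had the highest share of the 12 gene lists: 5 of 21 (23.8%) had a 3' UTR peak, beside the 4.7% of all genes. Its 0.0343 Mb of eligible 3' UTR held 7 peaks, 204 per Mb, beside 33.0 over all 3' UTRs. Immediate early genes, a part of that list, are transcribed soon after a stimulus or stress, without new protein. Jun, a subunit of AP-1, had densities of 4.15 and 3.30 with ranks of 90.2 and 94.1. Ier2, a nuclear protein, had 3.71 and 2.37 with ranks of 88.8 and 90.7. Both stood in the upper part of each library.

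Fosb, a partner of Jun, ranked 80.4 and 84.2, and Klf6, a zinc finger factor, 59.6 and 73.3. The 3 peaks of Cebpd, a factor of inflammation and fat cell formation, ranked from 15.6 to 19.995 in replicate 1 and from 15.4 to 43.9 in replicate 2. Jun lies in a single exon, and its peak is 1453 bp from the start of Junos, while that of Ier2 is 1151 bp from its own start. Over the 57 peaks in single-exon transcripts, the median ranks were 42.5 and 58.2, under those of spliced genes with 60.7 and 69.1.

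Muscle gene lists had 0 to 2 genes each with a 3' UTR peak, beside the 4.7% of all genes. None of the 35 sarcomere and Z-disc genes had one, in 0.0269 Mb of eligible 3' UTR. Of 19 myogenic regulators 2 (10.5%) had one: Tead4, a TEAD factor, with ranks of 48.1 and 65.2, and Wwtr1, its coactivator TAZ, with 26.2 and 29.7. Of 17 genes of excitation-contraction coupling 2 (11.8%) had one. Cacnb1, the beta subunit of the calcium channel of the T-tubule, had densities of 3.02 and 2.39 and ranks of 85.8 and 90.8, 80 bp after the stop codon. Jph1, a junctophilin that ties T-tubule to sarcoplasmic reticulum, ranked 56.0 and 70.4. The share of genes with a peak grew with 3' UTR length, so rates per Mb of eligible 3' UTR are given too. Myogenic regulators held 40.5 peaks per Mb and excitation-contraction coupling genes 107, on 2 peaks each, beside 33.0 over all 3' UTRs.

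Of 19 listed genes of the dystrophin complex and costamere 2 (10.5%) had peaks, and Dtnb, described above, is not on that list. Tln2, a talin that links integrins to actin, had 2 peaks, ranked 52.9 and 39.7, and 42.0 and 48.1. The peak counted for Vcl, vinculin, is also in the 3' UTR of Ap3m1, a subunit of the vesicle adaptor AP-3, and ranked 51.3 and 59.4. Of 20 genes of muscle energy metabolism 1 (5%) had one: Pdk4, a kinase that restrains pyruvate dehydrogenase, with ranks of 19.5 and 22.5. The rates were 62.4 peaks per Mb for the dystrophin complex and costamere and 55.9 for energy metabolism, beside 33.0 over all 3' UTRs. With so few genes in each list these shares and rates rest on 1 or 2 genes.

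Among 30 RNA-binding proteins and microRNA factors, which act on 3' UTRs themselves, 4 (13.3%) had a 3' UTR peak, beside the 4.7% of all genes. Their 0.119 Mb of eligible 3' UTR held 33.5 peaks per Mb, close to the 33.0 over all 3' UTRs. That of Zfp36l1, which binds AU-rich elements and speeds decay, ranked 86.2 and 89.98, and 1 near-identical copy lies on the X chromosome. Celf1, a splicing and decay factor, had 45.4 and 55.5, Tnrc6b, a partner of Argonaute, 39.2 and 59.8, and Rbfox2, a splicing factor, 45.0 and 46.6. Of 25 limb and homeobox regulators 2 (8%) had a 3' UTR peak, at 51.2 peaks per Mb. That of Hoxa10, which patterns the limb, ranked 46.2 and 62.2. None of 23 matrix and fibroblast genes, 17 clock genes, 17 housekeeping genes or 22 genes of other organs had a 3' UTR peak, beside the 4.7% of all genes. Their eligible 3' UTRs made 0.0345, 0.0433, 0.0248 and 0.0205 Mb, which is little sequence at 33.0 peaks per Mb.

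Other annotation often met at these sites. It was counted for 3' UTR peaks only, so no share over all distal peaks stands beside these counts. The nearest transcript start was one of the host gene in 489 peaks (51.2%), of another protein-coding gene in 234 and of a noncoding gene in 232. In 117 peaks (12.3%) the centre also lay inside another gene, of which 57 were in a protein-coding one, and in 96 of the 117 that gene ran antisense. A protein-coding gene that converged on the host ended within 1 kb in 110 peaks. Median ranks were 59.3 and 66.8 with another gene at the centre and 60.1 and 68.5 without. Those near a converging end had 63.6 and 68.7, and the others 59.9 and 68.0. Neither neighbourhood moved the ranks by more than a small part of their quartile range.

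The 1 kb limit cut through strong peaks. Just inside it were Hoxa10 (1017 bp), Actn4 (1018 bp), the alpha-actinin of non-muscle cells, with ranks of 65.6 and 69.6, and Olfml3 (1022 bp) with 61.8 and 73.2. Just outside it lay Hyou1 (1000 bp), a chaperone of the endoplasmic reticulum, with 80.1 and 88.4, Dmpk (995 bp), the myotonic dystrophy kinase, with 93.6 and 92.8, and 2700081O15Rik (988 bp) with 91.7 and 91.5. In all, 217 shared peaks in 3' UTRs lay within 1 kb of a start and were not counted.

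Near-identical copies were searched for the 3' UTR peaks only, so no share over all distal peaks stands beside the count. At a limit of 90% identity over 80% of the peak, 31 of the 955 (3.25%) had another copy on a chromosome. Those with the most were Vmn2r11, a vomeronasal receptor, with 40, and the gene model Gm8113 with 25, and they ranked low, at 15.1 and 3.61 and at 26.8 and 33.2. Others ranked high, with Lars2 at 99.993 and 99.997, Zfp36l1 as given above, Dennd2a at 83.9 and 90.7, Cyp4f17 at 86.2 and 87.6 and the pair in Cdc6 at 82.5 and 89.6 and at 78.9 and 83.4.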

How the data were processed

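The deposited lists were used as the authors made them, on mm10 per the file headers, each called on 1 library. They rest on an aligner and a peak caller not given in the sources used here. Peak lists hold the authors' density, a signal whose scaling is not stated. The FDR lists give the authors' q-value, a false discovery rate, below 0.05 per stretch. Footprints carry a deposited constant of 0.01 in a score column, with no stated meaning, and were used as positions only. The longer peak list of each library was used, with a shared peak overlapping by at least 1 bp. Classes came from GENCODE M21, and sequence from GRCm38.p6, whose 19 autosome lengths matched the annotation. One parental genome is CAST, so matches that a CAST variant changes were not seen. GC, CpG and 19 motifs were counted in 200 bp windows on the centres. Copies were searched with BLAST+ 2.17.0 (word size 28). Scripts used Python 3.11.15, numpy 2.4.6 and pandas 2.3.3, and figures matplotlib 3.10.9; the interval and motif code was tested on simulated data. Named peaks were the 12 with the highest mean rank, the top 2 of each of 12 gene lists, the 5 genes with at least 3 peaks and most of them, those next to the 1 kb limit, and the strongest with each motif in a footprint in both libraries (for CTCF, GC box and E-box several); further list members, Kdr and the peaks named for their copies were chosen after their values were seen. The members, lists and motifs were chosen with earlier results of these data known. Alternatives were another list, overlap, base library, distance, UTR definition, repeat limit and window, and each library alone. No sequence from chromosome 18 is printed. One list member that the naming rule selects is not reported here.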

Additional observations from a re-analysis of the deposited data

How the results depend on the processing

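No paired analysis was possible because the 2 libraries form 1 group. Of 101 values of 9 results under the alternatives, 67 moved by less than the spread between the libraries, or, for counts, by less than 1.5 times. With the shorter peak lists there were 533 peaks (2.21% of distal peaks, 18.4 per Mb), with a median mean rank of 60.01 (63.7 with the longer lists), a footprint in both libraries in 94.4%, a median place at 45.1% of the 3' UTR, 56% GC, a CTCF core in 24.2%, and 7 listed genes with a peak in place of 18. An overlap of at least 50% of both peaks gave a rank of 67.5, footprints in 90.3% and CTCF in 21.3%. A limit of 2 kb gave a share of 2.00%, a place at 44.7% and 55% GC, and a limit of 500 bp a place at 42.3% and 56% GC. Whole peaks inside the 3' UTR gave 1.89%, 47.7% and 55% GC, and centres with no other gene 1.86%. Windows of 100 and 400 bp gave 58% and 52.5% GC. Each library alone, with no overlap asked, gave 1231 to 1772 peaks, 42.6 to 61.3 per Mb, a rank of 48.8 to 50.3, a footprint in 81.6 to 84.3%, a place at 43.6 to 44.9%, 55 to 55.5% GC, CTCF in 13.1 to 15.4% and 24 to 32 listed genes. The share without peaks that have another copy, chosen after seeing the data as were all CTCF values, was 2.07%. In the shorter lists and in each library alone, 3' UTR peaks still exceeded all distal peaks in CTCF share (20.2%, 10.3% and 12.2% for distal peaks of the shorter lists, replicate 2 and replicate 1) and in median rank (51.9, 43.1 and 41.5). No rate per Mb was computed for the repeat and copy alternatives. Depth in reads is unknown, so a site missing from 1 library cannot be told apart from one too shallow to call.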
